A study of Mus musculus with 4 samples.

Results

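The genes of the DNA replication machinery were examined in immature granulocytes, the neutrophil precursors of the bone marrow. The list held 47 genes for origin recognition and licensing, the replicative helicase, the polymerases and clamp, single-strand DNA binding, Okazaki fragment joining, nucleotide supply and the chromatin that follows the fork. Members were chosen by name: 42 of the 47 carried that name in the array annotation, and the other 5, Orc2 to Orc6, were found through older names. All 47 were measured, among 16978 genes in all. The cells were sorted from bone marrow of male C57BL/6 mice that lacked miR-223 (miR-223 KO, 2 arrays) or were wild type (WT, 2 arrays). Age, the construction of the deleted allele and any pooling of animals are not given in the sources used here. Nothing in the labels states separate animals for the replicates, so the p-values reflect only how far these arrays scatter, which could be technical.

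Each RNA was labelled with Cy3 and hybridised alone to a whole-genome array, and all 4 arrays shared 1 slide and 1 scan. Between 59.6% and 62.9% of spots were well above background and 0 were saturated. Of 70 probes for the 47 genes, 67 passed the filter (flagged by the scanner software as well above background in 2 or more arrays), and the probe used for each gene was well above background on all 4 arrays. The array has 0 probes named for Mir223, so the deleted gene itself could not check the labels. The sum of 14 markers of immature granulocytes was 6848 and 6074 in KO and 6562 and 7122 in WT, in units of each array's 75th percentile of signal, and the ranges overlapped. Levels below are log2 signals on which 0 is that percentile. They are compared between arrays and never between genes.

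Before S phase, the origin recognition complex with Cdc6 and Cdt1 loads the Mcm2 to Mcm7 helicase onto DNA. At the onset of S phase Mcm10, Cdc45 and the GINS complex turn the helicase on, and polymerases held by the PCNA clamp copy the strands from deoxynucleotides made chiefly by ribonucleotide reductase. Many of these genes are known targets of E2F transcription factors, and in the marrow their transcripts mark the dividing early granulocyte stages, since later neutrophils leave the cell cycle. miR-223 is a small RNA abundant in myeloid cells that represses transcripts pairing with its seed. Its main mature strand is shown with the seed, bases 2 to 8, in capitals, from the RefSeq table on GRCm38.p6, chrX:96242884-96242905, plus strand.
miR-223-3p: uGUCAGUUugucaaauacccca

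The 7 letters complementary to that seed, AACTGAC, occurred in 1 of the 70 member probes, against 0.372% of all probes on the array. That probe reads Tyms, the thymidylate synthase that makes dTMP, and lies at chr5:30387873-30387932 on the minus strand of mm9. The stretch around the match is shown with the match in capitals.
Tyms probe stretch: aagcttagatAACTGACcaacaccctg
It was 1 of 3 Tyms probes above background and not the brightest. Its log2 level was -3.90 and -3.11 in KO, against -2.84 and -2.36 in WT, a difference of -0.90. A probe covers 60 bases, so sites elsewhere in a transcript were not searched.

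Promoter windows, 250 bases before to 50 after an annotated start, were in the RefSeq table on GRCm38.p6 for 40 of the 47 genes. They were searched on both strands for the 4 E2F words TTTCCCGC, TTTCGCGC, TTTGCCGC and TTTGGCGC, with overlapping matches counted. At least 1 word stood in a window of 15 of the 40 genes (37.5%), against 2.6% of all 27025 genes with a window. The words stood in windows of 35.3% of a second list of replication genes and of 4% of mitotic genes. Of the 21 matches in the members' windows, 13 began before the start and 8 at or after it, and 0 began more than 200 bases before it. The windows of 3 helicase subunits that carry 2 or 3 words each are shown, chosen after their values were seen. Mcm7, not shown, also had 2 words in a window, with a log2 difference of -0.27. Capitals mark the words. Mcm5 is at chr8:75109259-75109558 on the plus strand, Mcm6 at chr1:128359656-128359955 and Mcm3 at chr1:20820263-20820562, both on the minus strand, all on GRCm38.p6.
Mcm5: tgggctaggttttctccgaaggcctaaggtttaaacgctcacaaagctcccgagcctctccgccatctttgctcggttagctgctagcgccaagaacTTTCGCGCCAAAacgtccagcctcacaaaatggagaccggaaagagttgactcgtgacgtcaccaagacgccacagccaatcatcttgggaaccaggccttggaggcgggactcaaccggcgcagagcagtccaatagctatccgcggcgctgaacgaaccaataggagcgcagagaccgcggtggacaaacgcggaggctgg
Mcm6: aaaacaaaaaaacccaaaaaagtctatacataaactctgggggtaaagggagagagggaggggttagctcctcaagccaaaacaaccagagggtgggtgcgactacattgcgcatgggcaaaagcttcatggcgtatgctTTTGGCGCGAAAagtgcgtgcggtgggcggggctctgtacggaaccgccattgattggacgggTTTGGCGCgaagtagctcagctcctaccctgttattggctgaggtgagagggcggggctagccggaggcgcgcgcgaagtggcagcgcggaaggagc
Mcm3: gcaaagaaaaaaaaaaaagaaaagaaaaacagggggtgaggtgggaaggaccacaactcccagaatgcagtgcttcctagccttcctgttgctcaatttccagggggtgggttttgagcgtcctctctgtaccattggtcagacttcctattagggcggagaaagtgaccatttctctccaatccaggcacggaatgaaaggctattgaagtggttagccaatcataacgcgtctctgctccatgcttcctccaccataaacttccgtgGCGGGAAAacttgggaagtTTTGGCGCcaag
The Mcm5 words overlap and begin 153 and 149 bases before the start. Those of Mcm6 begin 110, 106 and 47 bases before it, and those of Mcm3 19 and 38 bases after it. The log2 difference between genotypes was -0.32 for Mcm5, -0.17 for Mcm6 and -0.03 for Mcm3.

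The cell cycle homology element, written here as TTTGAA, stood in windows of 12.5% of the members with a window, 72% of mitotic genes and 20.2% of all genes. The CCAAT word stood in 62.5% of the members, 76% of mitotic genes and 41.1% of all genes. These windows differ in base composition, with 59.3% G and C for the members, 59.4% for mitotic genes and 53.8% over the table. Members with an E2F word had a median log2 difference of -0.20 (15 genes, 13 lower in KO) and those without one -0.22 (25 genes, 19 lower).

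**Figure D1:**
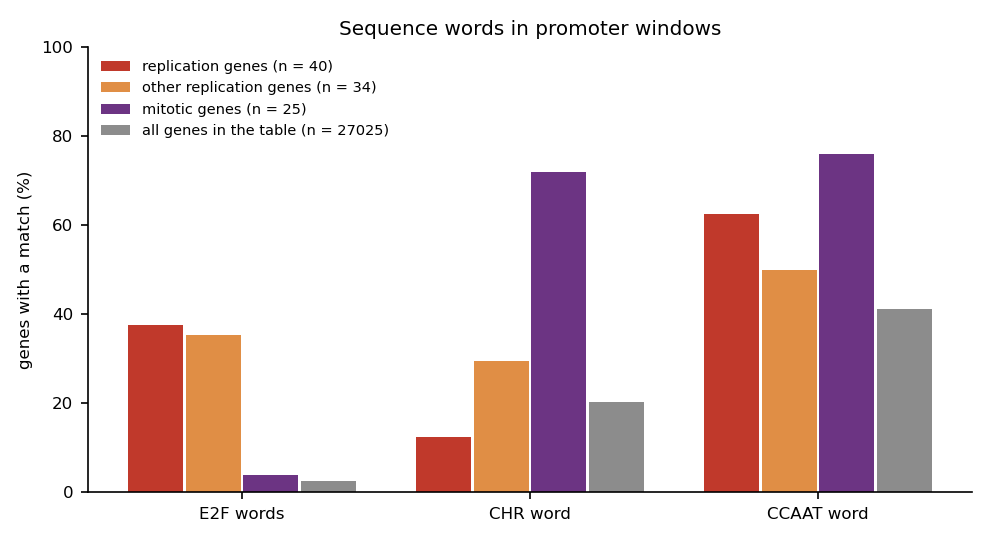
Share of genes (vertical axis, percent) with at least 1 match of the E2F words, the CHR word or the CCAAT word in a promoter window, as bars for replication genes, other replication genes, mitotic genes and all genes in the table. E2F words stood in 37.5% of the replication genes and 4% of the mitotic genes, and the CHR word in 12.5% and 72%.

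Across the 42 genes found by name, transcripts were slightly and widely lower in KO cells, except in 1 setting of the background correction given below. Their mean log2 level was 3.14 and 3.15 on the KO arrays, against 3.36 and 3.33 on the WT arrays. The difference was below 0 in 38 of 42, against 52.4% of all genes. Its median was -0.22, a ratio of 0.857 KO to WT, against -0.02 over all genes. Single genes spread around it with an SD of 0.15 and reached from -0.45 (Chaf1a) to 0.38 (Rrm2). Of the 42, 25 lay below -0.2, 8 between -0.2 and -0.1, 8 within 0.1 of 0 and 1, Rrm2, above that. None reached -0.5. With the 5 Orc genes the count was 39 of 47 and the median -0.22.

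Both KO arrays lay below both WT arrays, called separated below here, for 34 of the 42 genes, against 30.5% of all genes, and above both for 2, against 28%. In the limma fit over all genes, 0 of 42 passed an adjusted p of 0.05, as did 0% of all genes, and the smallest adjusted p of a member was 0.106. At an unadjusted p under 0.05, 14 members were lower, against 12% of all genes, and 1 was higher, against 11.8%. When the prior spread was allowed to follow signal intensity, 7 passed the adjusted threshold as lower (Chaf1a, Rrm1, Lig1, Tk1, Pole, Rpa1 and Gins3), against 4.13% of all genes, and Rrm2 as the only higher one, against 5.45%. Leaving out 1 array leaves its genotype with 1 sample that is assumed to vary like the other genotype's. The lower members then numbered 4 without KO replicate 1 (9.98% of all genes), 5 without KO replicate 2 (9.45%), 4 without WT replicate 1 (8.35%) and 3 without WT replicate 2 (5.77%), shares of the 42 near those of all genes. The 1 higher became 0 without KO replicate 2, WT replicate 1 or WT replicate 2, where 10.6%, 6.92% and 8.86% of all genes were higher. An exact test of 2 arrays against 2 cannot pass 0.05.

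The direction of the median held in 14 of 15 other settings. Some of these left it at the same -0.22 and so say little: no filter on dim probes, signal required on all 4 arrays, and outlier spots left out. The median turned, to 0.20, only with normexp background correction fitted on all spots. The WT replicate 1 array held 1 extreme control spot in that fit, and its part in the turn was not tested alone. The medians of all roles but origin recognition turned in that setting alone, of 14 tried. On the authors' deposited values the median was -0.14, against 0.06 over all genes. There 21 of the 42 genes were separated below, and the share of all genes was not counted. These bulk RNAs cannot tell fewer replicating cells from less RNA per cell.

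**Figure D2:**
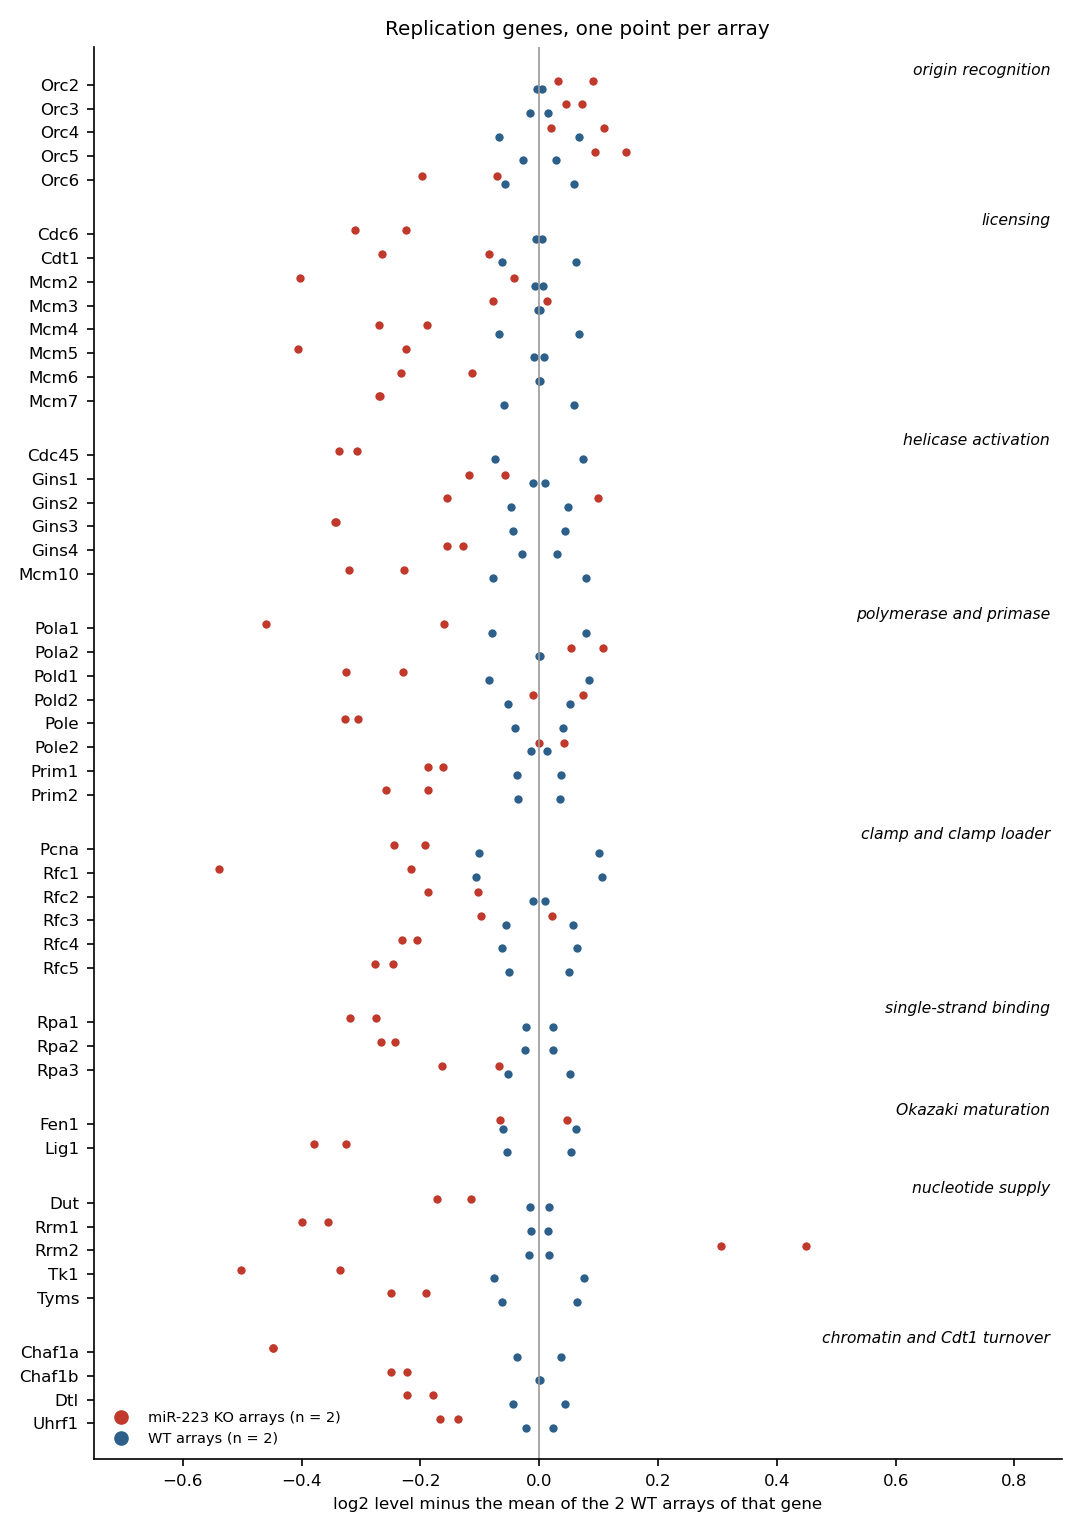
Log2 level of each replication gene on each array, minus the mean of the 2 WT arrays (horizontal axis), with genes grouped by role down the page and KO points above WT points in each row. KO points lie left of both WT points for 34 of the 42 genes found by name (for 1 under normexp on all spots), and Rrm2 lies far to the right at a difference of 0.38.

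**Figure D3:**
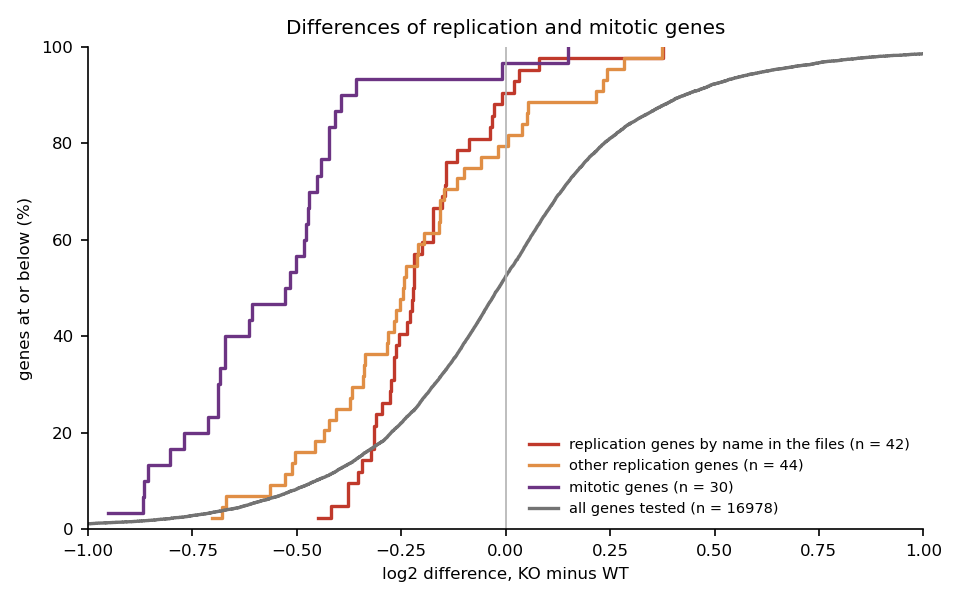
Cumulative share of genes (vertical axis, percent) at or below a log2 difference, KO minus WT (horizontal axis), as 1 line each for replication genes, other replication genes, mitotic genes and all genes tested. The medians are -0.22, -0.25, -0.52 and -0.02 (0.20, 0.09, -0.15 and -0.15 under normexp on all spots).

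Origin recognition was the role in which most members were not lower. Of Orc2 to Orc6, the subunits that mark the origin, 4 had a difference above 0 and the median was 0.06, with KO arrays above WT arrays for 3 of 5 and below for 1. Orc5 was at -2.19 and -2.13 in KO, against -2.25 and -2.31 in WT, a difference of 0.12 ± 0.08 (SE, n = 2 arrays per genotype, as for every SE below; adjusted p = 0.427). Orc2 was at 0.38 and 0.44 in KO and 0.36 and 0.35 in WT (0.06 ± 0.08, adjusted p = 0.674). The KO arrays were higher in both, by narrow margins. Orc6 alone of these 5 was lower, at 3.43 and 3.56 in KO, against 3.69 and 3.57 in WT, groups that nearly touch (-0.13 ± 0.10, adjusted p = 0.462). It was -0.07 without KO replicate 1 and -0.08 without WT replicate 1. Orc1, the large subunit, which was in the second replication list and is named after its values were seen, was also separated below. It was at -1.98 and -2.06 in KO, against -1.89 and -1.73 in WT (-0.21 ± 0.10, adjusted p = 0.298). Orc3 and Orc4 differed by 0.06 each. Their other probes disagreed in sign, and with the mean over probes Orc3 was at -0.05.

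Licensing genes load the helicase, and all 8 had a difference below 0, with a median of -0.23 and 7 of 8 separated below. Cdc6, the ATPase that recruits the helicase to the origin, was at 1.56 and 1.47 in KO, against 1.79 and 1.78 in WT (-0.27 ± 0.08, adjusted p = 0.179). For Mcm5 the levels were 5.20 and 5.02 in KO and 5.42 and 5.44 in WT (-0.32 ± 0.10, adjusted p = 0.186). For Mcm7 they were 5.25 and 5.25 in KO and 5.58 and 5.46 in WT (-0.27 ± 0.09, adjusted p = 0.191). The groups did not overlap for any of these 3. Mcm2, Mcm4 and Mcm6 differed by -0.22, -0.23 and -0.17, and Cdt1, the loading factor that geminin inhibits, by -0.17. Several of these rested on single arrays. Mcm2 was at -0.40 without KO replicate 1 and -0.04 without KO replicate 2. Cdt1 was at -0.26 without KO replicate 1, -0.08 without KO replicate 2 and -0.11 without WT replicate 2, and Mcm6 at -0.11 without KO replicate 2. Mcm3 was the exception, with overlapping groups at a difference of -0.03, and its second probe gave -0.0038. The licensing median was -0.14 on the authors' deposited values and 0.23 under normexp on all spots.

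The helicase activators were all 6 below 0, with a median of -0.21 and 5 separated below. Gins3, a subunit of the GINS complex, was at 0.69 and 0.69 in KO, against 1.07 and 0.99 in WT (-0.34 ± 0.08, adjusted p = 0.134). Cdc45, the partner of Mcm2 to Mcm7 in the active helicase, was at 1.15 and 1.18 in KO, against 1.41 and 1.56 in WT (-0.32 ± 0.09, adjusted p = 0.166). Mcm10, which helps to switch the helicase on, was at 3.46 and 3.37 in KO, against 3.77 and 3.61 in WT (-0.27 ± 0.10, adjusted p = 0.219). All 3 were separated. The GINS subunits were unequal: beside Gins3, Gins4 differed by -0.14, Gins1 by -0.09, and Gins2 by -0.03 with overlapping groups. These 4 transcripts encode subunits of 1 complex.

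The polymerase genes divided by subunit, a pattern noted after the values were seen. The catalytic subunits of polymerases alpha, delta and epsilon were each separated below WT, while their second subunits were not. Accessory subunits in the second replication list did not all follow that split. Pold3 was separated below at -0.28, Pold4 and Pole3 above at 0.24 and 0.22, and Pole4 overlapped at 0.05. Pole, the catalytic subunit of leading-strand polymerase epsilon, was at 2.66 and 2.68 in KO, against 3.03 and 2.95 in WT (-0.32 ± 0.08, adjusted p = 0.145). Pold1, that of lagging-strand polymerase delta, was at 4.28 and 4.19 in KO, against 4.43 and 4.60 in WT (-0.28 ± 0.10, adjusted p = 0.223). Pola1, that of polymerase alpha, was at 1.72 and 2.02 in KO, against 2.26 and 2.10 in WT (-0.31 ± 0.14, adjusted p = 0.289), and its difference was -0.16 without KO replicate 1.
The second subunits stood near 0. Pola2 was at -1.26 and -1.20 in KO, against -1.31 and -1.31 in WT (0.08 ± 0.08, adjusted p = 0.575). Pold2 was at 0.81 and 0.73 in KO, against 0.79 and 0.68 in WT (0.03 ± 0.09, adjusted p = 0.849). Pole2 was at 1.02 and 1.06 in KO, against 1.01 and 1.03 in WT (0.02 ± 0.08, adjusted p = 0.888). The KO arrays overlapped the WT arrays for Pold2 and Pole2 and lay just above them for Pola2, whose second probe pointed the other way at -0.26. The primase subunits, which lay down the RNA primers, were both separated below. Prim2 was at 1.88 and 1.95 in KO, against 2.18 and 2.10 in WT (-0.22 ± 0.09, adjusted p = 0.228), and Prim1 differed by -0.17. The role's median was -0.20, and 0.11 under normexp on all spots.

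The sliding clamp and its loader were all 6 below 0, with a median of -0.22 and 5 separated. Rfc5 was at 3.72 and 3.75 in KO, against 4.04 and 3.94 in WT (-0.26 ± 0.09, adjusted p = 0.192). Rfc4 was at 3.38 and 3.36 in KO, against 3.65 and 3.52 in WT (-0.22 ± 0.09, adjusted p = 0.249). Rfc1, the large subunit of the loader, was at 3.29 and 3.61 in KO, against 3.93 and 3.72 in WT (-0.38 ± 0.16, adjusted p = 0.255). Rfc1 had the widest spread of the loader genes, and its KO arrays differed by more than the lower WT array exceeded the higher KO array. Pcna, the clamp, differed by -0.22, Rfc2 by -0.15, and Rfc3 by -0.04 with overlapping groups. Pcna was at -0.12 without WT replicate 1, and Rfc1 at -0.22 without KO replicate 1.

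Single-strand binding and fragment joining gave the same sign. Rpa1, the large subunit of the protein that coats single-stranded DNA, was at 2.75 and 2.71 in KO, against 3.003 and 3.05 in WT (-0.30 ± 0.08, adjusted p = 0.151). Rpa2 was at 1.77 and 1.79 in KO, against 2.06 and 2.01 in WT (-0.25 ± 0.08, adjusted p = 0.179). Rpa3, the small subunit, differed by -0.12, by -0.07 without KO replicate 1 and by -0.06 without WT replicate 2. All 3 were separated below. Lig1, the ligase that seals Okazaki fragments, was at 5.52 and 5.46 in KO, against 5.79 and 5.89 in WT (-0.35 ± 0.09, adjusted p = 0.139). Fen1, the flap nuclease that acts before it, was at 2.66 and 2.78 in KO, against 2.79 and 2.67 in WT, groups that overlapped fully at a difference of -0.01 ± 0.10 (adjusted p = 0.959).

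Of the 5 nucleotide supply genes, 4 were separated below WT and 1, Rrm2, above it. Ribonucleotide reductase is built from Rrm1, the large subunit, and Rrm2, the S phase small subunit. Rrm1 was at 4.12 and 4.16 in KO, against 4.50 and 4.53 in WT (-0.38 ± 0.08, adjusted p = 0.117). Rrm2 was at 3.12 and 3.26 in KO, against 2.83 and 2.80 in WT (0.38 ± 0.09, adjusted p = 0.138). The 2 subunits thus differed by about the same size in opposite directions, each with groups that did not overlap.
Across the 10 alternatives that can move it, the Rrm2 difference ran from 0.31 to 0.82. It rests on 1 probe, of which 57 of 60 bases fell in the annotated span at chr12:25398619-25398675 of mm9. Tk1, the S phase thymidine kinase, was at 4.02 and 4.19 in KO, against 4.60 and 4.45 in WT (-0.42 ± 0.11, adjusted p = 0.150). Tyms differed by -0.22, and Dut, which removes dUTP, by -0.14, both separated below.

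Some nucleotide genes outside the list, named after their values were seen, were also higher. Samhd1, which degrades dNTPs, was at 2.52 and 2.61 in KO, against 2.21 and 2.17 in WT (0.37 ± 0.08, adjusted p = 0.124). Rrm2b, the p53-induced small subunit, was at -2.52 and -2.68 in KO, against -2.87 and -2.89 in WT (0.28 ± 0.10, adjusted p = 0.199). Tk2, the mitochondrial thymidine kinase, differed by 0.23. Dck, the deoxycytidine kinase, differed by -0.25 and Dtymk, the dTMP kinase, by -0.15.

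**Figure D4:**
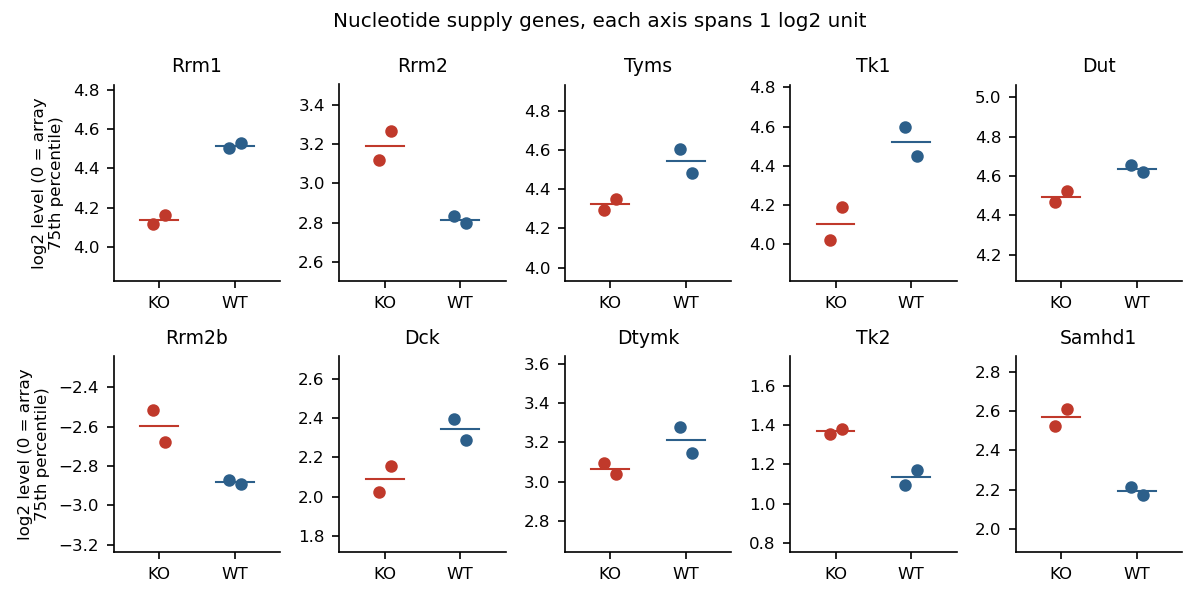
Log2 level on each array (vertical axis, 0 is the array's 75th percentile) of 10 nucleotide supply genes, KO left and WT right, with a point per array and a bar at the mean. Rrm2, Rrm2b, Tk2 and Samhd1 lie higher in KO, and the other 6 lower.

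The genes that follow the fork were all 4 separated below WT, with a median of -0.22. Chaf1a, the large subunit of the chromatin assembly factor that places histones on new DNA, was at 2.67 and 2.67 in KO, against 3.08 and 3.16 in WT. Its difference of -0.45 ± 0.08 (adjusted p = 0.106) was the largest of the members. Its partner Chaf1b was at 3.49 and 3.46 in KO, against 3.71 and 3.71 in WT (-0.24 ± 0.08, adjusted p = 0.191). Dtl, which directs Cdt1 to degradation, was at 1.99 and 1.94 in KO, against 2.21 and 2.12 in WT (-0.20 ± 0.08, adjusted p = 0.256). Uhrf1, which carries DNA methylation onto the new strand, differed by -0.15.

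Members with more than 1 usable probe gave a check within the array. In 12 of the 15 such genes every probe had the same sign, and the 3 exceptions were Orc3, Orc4 and Pola2, of which none had probes that differed by over 0.5. The 3 Dtl probes differed by -0.20, -0.42 and -0.68, and the Pold1 probes by -0.28 and -0.33. For Tyms the 2 brighter probes gave -0.22 and -0.24. Dimmer probes were further from 0 for Dtl and Tyms and nearer to it for Cdc6, Pole and Rfc2.

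**Figure D5:**
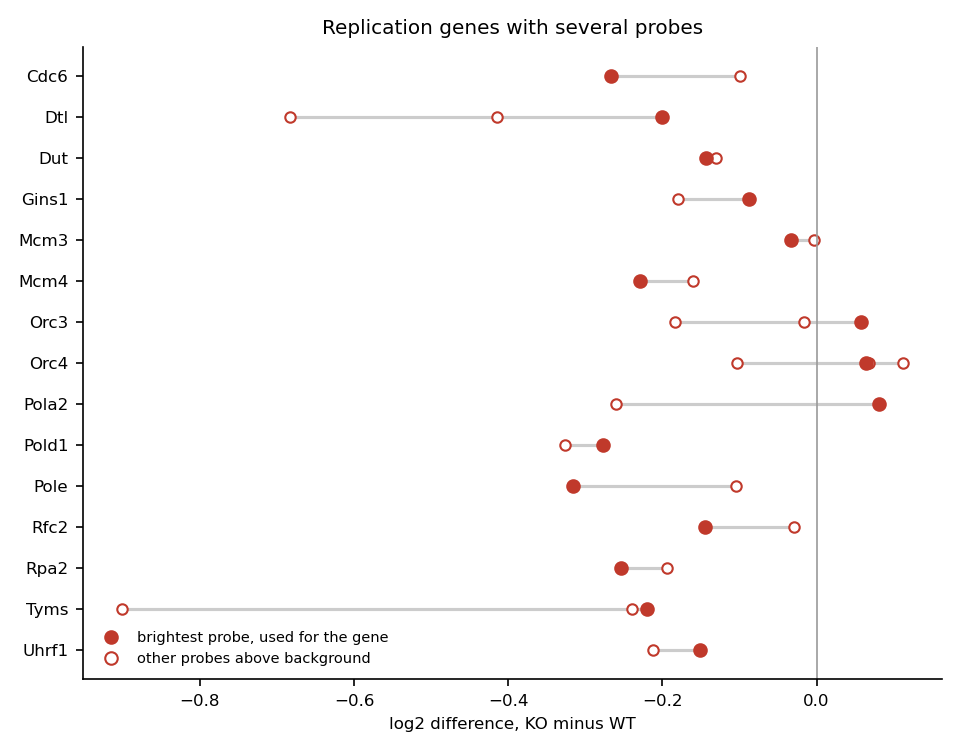
Log2 difference, KO minus WT (horizontal axis), of each probe above background for the 15 replication genes with several, with the brightest probe filled. Probes lie on both sides of 0 only for Orc3, Orc4 and Pola2.

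A second list of 44 genes around the fork (checkpoint and origin-firing factors, accessory subunits, E2f and cyclin genes) also lay mostly below 0. Of these, 35 were lower in KO, against 52.4% of all genes, with a median of -0.25. Separated below were 32, against 30.5% of all genes, and above 6, against 28%. At an unadjusted p under 0.05, 18 were lower, against 12%, and 3 higher, against 11.8%. By the smallest p they were led by Ccne1, Mtbp, Ccne2 and Asf1b. Ccne1, the cyclin E that drives entry into S phase, was at 3.07 and 3.08 in KO, against 3.77 and 3.73 in WT (-0.68 ± 0.08, adjusted p = 0.086). Ccne2 differed by -0.70 ± 0.11, Mtbp, an origin-firing factor, by -0.67 ± 0.10, and Asf1b, a histone chaperone, by -0.53 ± 0.08, each with an adjusted p of 0.096. E2f1, a principal activator of this programme, was at 1.32 and 1.31 in KO, against 1.30 and 1.44 in WT, with overlapping groups and a difference of -0.06 ± 0.09 (adjusted p = 0.727). Without the E2f, cyclin and Cdk2 genes the median was -0.24 over 37 genes. Over all 44 it was 0.09 under normexp on all spots and between -0.28 and -0.16 in the 16 other settings.

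Mitotic genes were lower by more than the replication genes, as a description of 2 lists. Of 30, 29 were below 0 with a median of -0.52, and 28 were separated below, against 30.5% of all genes. At an unadjusted p under 0.05, 28 were lower, against 12% of all genes. With the intensity trend 27 passed as lower, against 4.13%. Their median lay between -0.60 and -0.44 in all settings but normexp on all spots. There it was -0.15, the same as the median of all genes, so the list did not stand apart from them. Foxm1, the transcription factor of late cell cycle genes, was at 1.37 and 1.42 in KO, against 2.35 and 2.34 in WT (-0.95 ± 0.08, adjusted p = 0.084). Kif11, a spindle motor, differed by -0.86 ± 0.11, Plk1, a mitotic kinase, by -0.77 ± 0.10, and Cdca8, of the chromosomal passenger complex, by -0.67 ± 0.08.

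Markers of other cells differed between the same arrays. Of 15 erythroid markers 9 were measured and 8 of these were below 0, with a median of -0.61, while Ermap was above at 1.05. Their summed signal was 36.3 and 28.5 in KO and 49.1 and 47.6 in WT, in units of the 75th percentile. Most of that sum was Hba-a1, at log2 levels of 5.01 and 4.63 in KO and 5.45 and 5.40 in WT. Slc4a1, the red cell anion exchanger, differed by -0.62, Car2 by -0.39, Hba-a1 by -0.61 and Tfrc by -0.10. Klf1, Rhag and Gata1 were among those that did not pass the filter, and 0 probes carried the name Hbb-b1.
Monocyte and macrophage markers went the other way, with 11 of 12 above 0, a median of 0.69 and a sum of 150.5 and 125.0 in KO, against 85.6 and 90.6 in WT. Of 5 eosinophil markers, 4 were above 0, and the sum was 6.27 and 5.05 in KO, against 2.79 and 2.29 in WT. Il5ra did not pass the filter. Summed T cell markers were at 0.76 and 0.58 in KO and 1.18 and 1.26 in WT, and summed B cell markers at 9.22 and 7.24 in KO and 6.27 and 6.79 in WT, where Rag1 and Ebf1 did not pass. Single genes carried the T and B cell sums too. Without Cd3d, which differed by -1.43, the T cell sums were 0.47 and 0.28 in KO and 0.38 and 0.44 in WT, and 6 of 8 markers were below 0 with a median of -0.14. Without Cd79b, which differed by 0.46, the B cell sums were 1.64 and 1.01 in KO and 1.46 and 1.63 in WT, and 6 of 7 markers were below 0 with a median of -0.26. Both remaining sums overlapped. Stem and progenitor markers summed to 41.3 and 39.3 in KO and 37.0 and 34.8 in WT. Within that sum Cd34 was at log2 levels of 3.47 and 2.98 in KO, against 2.32 and 2.35 in WT. The brighter Myb and Erg had overlapping groups, with differences of 0.03 and -0.17. A sum without Cd34 was not taken, so the gap cannot be read as a trait of the list. Of the 14 granulocyte markers 8 were above 0 and 6 below, with a median of 0.08. The early granule protease genes Prtn3, Ctsg and Elane differed by 0.72, 0.63 and 0.50, and Mpo, another early granule gene, by 0.05. The later granule and cytosolic genes Ltf, S100a8, S100a9 and Chil3 differed by -0.44, -0.20, -0.20 and -0.18, each separated below. Others of the list did not go that way. Mmp8, Csf3r and Gfi1 differed by 0.55, 0.25 and 0.11, with KO arrays above WT arrays. Lcn2, Camp and Ngp differed by 0.13, -0.05 and -0.04, with overlapping groups. The part of these cell populations or of the maturation stage in the replication gene differences was not tested.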

How the data were processed

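Total RNA of 4 samples was hybridised to 1-colour arrays. Per the file headers, the deposited intensity is the processed signal of Agilent Feature Extraction 10.5.1.1, detrended and background-subtracted, not scaled between arrays; mean spot and local background intensity are deposited beside it. The value table deposited by the authors is in log2, with scale and centring unstated; set against the scanner files, each column was log2 of that signal shifted by a constant (Pearson's r 0.9999 over 41174 probes, column medians 4.68). Probe positions are on mm9, per the file headers.

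The log2 processed signal had each array's 75th percentile over non-control spots subtracted. Spots of a probe were averaged, probes flagged well above background in 2 or more of the 4 arrays were kept (25749 of 41174), and the brightest probe stood for a gene. Gene names came from accessions (26933 probes), current symbols (5570) or synonyms (894) of a RefSeq table of GRCm38.p6, or stayed as in the files (7777). KO minus WT was tested over 16978 genes with lmFit and eBayes of limma 3.58.1 under R 4.3.3 (prior degrees of freedom 1.83, Benjamini-Hochberg adjustment, threshold 0.05), without a replicate block, and the fit was tested on simulated data. Motifs were counted in Python 3.11.15. Alternatives changed the background correction, scaling, filter, probe rule, variance prior, block and arrays used.

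Members and lists were chosen with earlier results of these data known. Values per array are given for the 3 members of each role with the smallest unadjusted p (2 in roles of 2 or 3), for members whose direction differs from most of their role, and for E2f1. Of the second replication list and the mitotic genes the 4 with the smallest p are named, and of marker lists 2 by p and 2 by brightness where the list went the members' way; others named were chosen after their values were seen.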

Additional observations from a re-analysis of the deposited data

How the results depend on the processing

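The choice that mattered most was the background correction. Normexp fitted on all spots turned 39 of the 47 genes. The control spot described next was not left out alone, so its part in this was not tested. On the WT replicate 1 array the lowest control spot had a background-subtracted signal of -29869, against -0.07 to -0.87 on the other arrays, and the mean member levels became 2.97 and 3.003 on the KO arrays and 2.46 and 3.11 on the WT arrays. The values that turned were Mcm2 (0.20), Mcm3 (0.38), Mcm4 (0.20), Mcm5 (0.16), Mcm6 (0.34), Mcm7 (0.25), Mcm10 (0.15), Pcna (0.26), Gins1 (0.25), Gins2 (0.17), Gins4 (0.19), Cdc6 (0.035), Cdt1 (0.32), Orc5 (-0.61), Orc6 (0.36), Pola1 (0.015), Pola2 (-0.29), Pole (0.13), Pold1 (0.099), Prim1 (0.39), Prim2 (0.098), Rfc1 (0.078), Rfc2 (0.39), Rfc3 (0.16), Rfc4 (0.31), Rfc5 (0.22), Rpa1 (0.059), Rpa2 (0.16), Rpa3 (0.30), Fen1 (0.45), Lig1 (0.12), Rrm1 (0.089), Tyms (0.20), Tk1 (0.021), Dut (0.30), Chaf1a (0.0403), Chaf1b (0.25), Uhrf1 (0.29) and Dtl (0.24). In that setting 3 of the 42 differences were below 0 and 1 gene was separated below, and the shares of all genes were not counted. At an unadjusted p under 0.05, 0 members were lower, against 0.501% of all genes, and 0 higher, against 0.942%. The median of all genes was -0.15 there, against -0.02 in the reported fit. The medians were 0.20 for the 42 genes, 0.23 for licensing, 0.11 for polymerases and 0.20 for nucleotide supply. With WT replicate 1 left out as well, a setting added after the data were seen, the medians were -0.15, -0.16, -0.10 and -0.15. Gins2 (0.056), Orc6 (0.041), Pola2 (-0.0078), Rfc3 (0.056), Fen1 (0.16) and Dtl (0.0075) turned. At an unadjusted p under 0.05, 7 members were lower there, against 12.6% of all genes. At the adjusted threshold, 188 of all genes passed. That fit leaves WT with 1 array, so no conclusion is drawn from these counts.

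Normexp fitted without control spots let 1885 of all genes pass and 3 members, of which 2 were lower, with medians of -0.15 for the 42 genes and -0.12 for polymerases, and turned Pola2 (-5e-04), Rfc3 (0.0043) and Fen1 (0.11). There the members lay 0.07 below the median of all genes, against 0.205 in the reported fit. Quantile normalization gave a median of -0.25 with 4 genes passing. Median scaling gave -0.19 and -0.17 for polymerases, and turned Gins2 (0.0026) and Fen1 (0.021). With it 8 members were lower at an unadjusted p under 0.05, against 10.1% of all genes. The authors' deposited values gave 61 genes passing and 21 members separated below, where the share of all genes separated was not counted. At an unadjusted p under 0.05, 1 member was lower there, against 6.52% of all genes. The medians were -0.14 for the 42 genes, -0.14 for licensing, -0.12 for polymerases and -0.14 for nucleotide supply. Mcm3 (0.049), Gins2 (0.053), Rfc3 (0.043) and Fen1 (0.071) turned. The members stayed 0.205 below the median of all genes under median scaling and on the deposited values. Both shift every gene by the same constant, so that gap could not change.

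Without the filter on dim probes 5 members were lower at an unadjusted p under 0.05, against 6.34% of all genes. With signal required on all 4 arrays 125 genes passed. The mean over probes gave a nucleotide supply median of -0.38 and turned Orc3 (-0.047) and Pola2 (-0.089). The intensity trend let 1627 genes pass and 8 members, 7 of them lower. With it 25 members were lower at an unadjusted p under 0.05, against 14.2% of all genes. The stricter filter also left fewer genes, 15621. The cause of these shifts was not tested.

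Deviations from the genotype means correlated at 0.0386 between arrays with the same replicate number. With 2 arrays a genotype the value for crossed arrays, -0.0386, follows from that by arithmetic. A single correlation near 0 cannot show whether the arrays were paired. With the replicate block 7 members were lower at an unadjusted p under 0.05, against 12.1% of all genes. Leaving out each array in turn gave medians from -0.25 to -0.19 for the 42 genes, from -0.27 to -0.15 for licensing and from -0.20 to -0.17 for polymerases, with 3 to 5 members lower and 0 to 1 higher at an unadjusted p under 0.05. Differences that took both signs ran from -0.16 to 0.098 for Gins2, from -0.0202 to 0.084 for Pold2, from -0.098 to 0.022 for Rfc3, from -0.071 to 0.051 for Fen1, from -0.078 to 0.013 for Mcm3 and from -0.0033 to 0.13 for Orc4. By over 1.5 times, 17 of the 47 differences moved when 1 array was left out, 8 of them among differences beyond 0.1. Apart from normexp on all spots, 10 members took the other sign in at least 1 setting, the added one included. With 2 arrays a genotype, the number of arrays limits the precision.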
